A study of Mus musculus with 10 samples.

Results

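The mitochondrial fusion, fission and mitophagy genes were 10 genes, Mfn1, Mfn2, Opa1, Oma1, Dnm1l, Fis1, Mff, Pink1, Bnip3 and Bnip3l, taken by symbol from the 24537 genes of the deposited heart count table. All 10 were found, and all 10 passed the filter on low counts. RNA sequencing had been done on hearts of 10 mice aged 6 weeks. The 5 control mice carried Rosa26-rtTA2+/- and no hairpin (TRE-SOD2-shRNA-/-), and the 5 iSOD2 mice carried Rosa26-rtTA2+/- with 1 copy of the hairpin cassette (TRE-SOD2-shRNA+/-). Both genotypes shared the transactivator and the doxycycline that their dams ate from conception to birth, so the comparison is of drug-exposed mice with and without the hairpin cassette. Effects of the hairpin, of its insertion and of the cassette together with the drug cannot be told apart. The transactivator is driven from the ubiquitous Rosa26 locus, so the in utero knockdown of Sod2, which encodes the matrix superoxide dismutase, was not confined to the heart. The control group held 3 males and 2 females, the iSOD2 group 2 males and 3 females. Litter A supplied 2 mice to either genotype and litter B supplied 3. A mouse is called by its genotype and number, as in control 1 or iSOD2 7.

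Mitochondria in the heart are joined and divided by a small set of GTPases and their partners. MFN1 and MFN2 tether and fuse outer membranes, OPA1 fuses inner membranes, and the protease OMA1 cleaves OPA1 when the membrane potential is lost. Division is carried out by the dynamin DRP1, encoded by Dnm1l, and the outer membrane proteins MFF and FIS1 take part in it. Damaged mitochondria are removed by mitophagy, in which the kinase PINK1 marks depolarized organelles for ubiquitin-dependent capture, while BNIP3 and BNIP3L (also called NIX) are membrane receptors that bind LC3 and GABARAP proteins directly. The comparison asks whether the transcripts of this machinery differed in adult hearts after the transient embryonic loss of SOD2.

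Counts in genes came to 16448090 to 24263086 per library. Sod2 itself had 10573 ± 588 normalized counts in control hearts and 10781 ± 449 in iSOD2 hearts (SD, n = 5 each), with a fold change of 0.03 on the log2 scale (SE 0.05, adjusted p by DESeq2 = 0.806). Normalized counts are counts divided by each library's DESeq2 size factor. The heart label was checked with 8 cardiomyocyte markers, whose mean log2 level was 17.1 in both genotypes (difference 0.02, exact permutation p = 0.690). The 8 hepatocyte markers were all higher in iSOD2 hearts. Their log2 level averaged 7.83 ± 1.84 in control and 9.51 ± 0.563 in iSOD2 mice (SD, n = 5 mice per genotype, exact permutation p = 0.0238). Their summed normalized counts ranged from 1092 to 11285 in controls and from 6000 to 22317 in iSOD2 hearts, and none of them was at 0 in all libraries. Of the other lists, 4 of 4 macrophage markers (difference -0.24, exact permutation p = 0.0714) and 6 of 6 erythroid markers (difference -0.28, exact permutation p = 0.230) were lower. All 4 atrial markers (difference 1.14, exact permutation p = 0.143, summed counts of 517 to 2123 and 634 to 7655) and all 4 skeletal muscle markers found (difference 0.39, exact permutation p = 0.190) were higher. Brown adipocyte markers were mixed, 2 higher and 2 lower (difference -0.25, exact permutation p = 0.230), as were endothelial markers (difference -0.03, exact permutation p = 0.675). Fibroblast markers were 3 higher and 1 lower (difference 0.09, exact permutation p = 0.167). The part of these markers in the values below was not tested. In bulk tissue, fewer cells of a type and less RNA per cell cannot be told apart.

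None of the 10 genes passed the test between genotypes. DESeq2 called 0 of 10 at an adjusted p of at most 0.05 with an absolute log2 fold change above 0.25, where 2.96% of the 9479 genes with an adjusted p were called (1.27% higher and 1.7% lower). At the adjusted p alone it was again 0 of 10, against 6.09% of genes (3.04% higher and 3.05% lower). At an unadjusted p under 0.05, DESeq2 picked out 2 of 10 (Fis1 and Pink1), against 13.2% of all genes. By edgeR it was 2 of 10, where 2718 of all 17728 genes were. By limma voom it was 1 of 10, and the share of all genes is not given here. The fitted log2 fold changes ran from -0.10 for Mfn2 to 0.16 for Fis1, with 5 genes above 0 and 5 below and a median of 0.00. Across all 17728 genes tested the median was 0.00 and 49.6% of genes were above 0. The genotypes overlapped for all 10 genes, while they did not overlap for 3.75% of all genes. The 95% interval of the fold change lay within 0.25 log2 units of 0 on both sides for 8 of the 10, Fis1 and Pink1 being the exceptions. The spread over the 10 mice was small, with coefficients of variation from 4.54% for Dnm1l to 9.96% for Fis1. Counting error alone would give 0.711% for Mfn2, the gene with most counts, to 4.24% for Oma1, the gene with fewest.

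**Figure D1:**
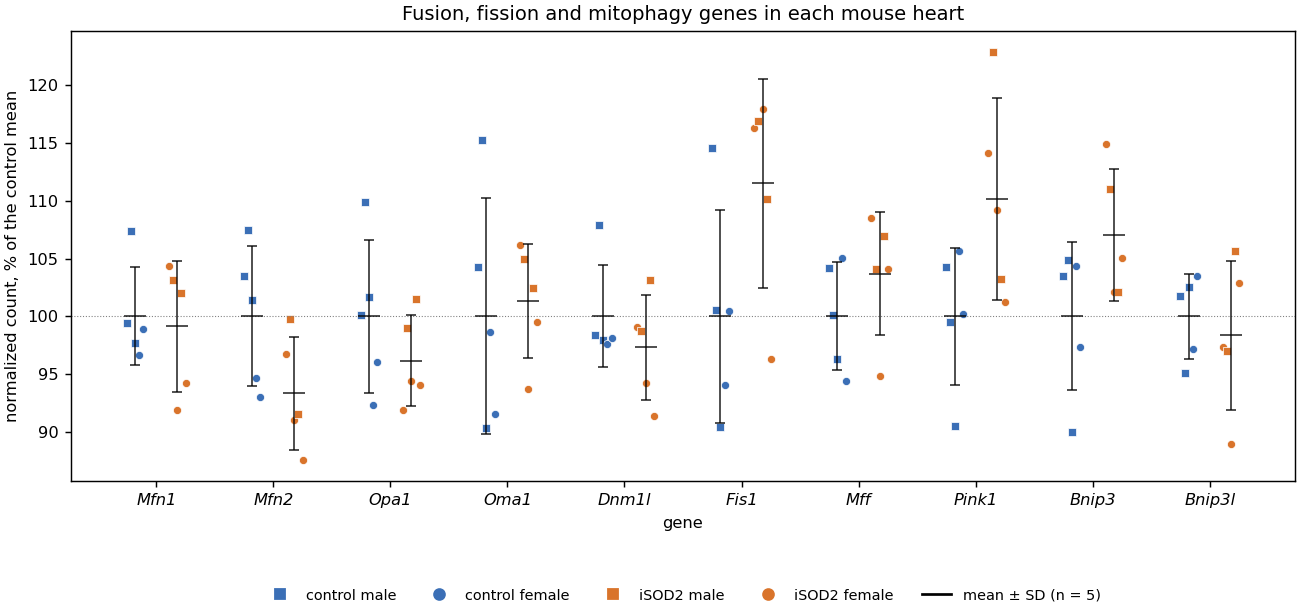
Normalized count of each gene in each of the 10 hearts, as a percent of that gene's control mean, with blue for control, orange for iSOD2, squares for males, circles for females, and bars for the mean and SD of 5 mice. Orange and blue points overlap for every gene, and the widest gaps between means are those of Fis1 (11.5%) and Pink1 (10.1%).

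The upstream sequence of these genes was searched for 5 motifs of factors tied to mitochondrial genes, hypoxia or oxidative stress. RefSeq promoter windows (GRCm38.p6, 250 bases before to 50 after the annotated start) were matched for 9 of the 10 genes, all but Bnip3l, and both strands were read. The motif of NRF1, a regulator of nuclear genes for mitochondrial proteins, was spelled GCGCA, any base, GCGC. It was present in 4 of 9 windows, those of Opa1, Oma1, Pink1 and Bnip3, and in 4.60% of the 32851 promoter windows of the table. That share is over all windows, and windows of like base content or expression were not compared. The hypoxia response core, ACGTG or GCGTG, was present in 4 of 9 windows (Mfn2, Dnm1l, Pink1 and Bnip3), against 43.8% of all windows. No member window held the forkhead motif GTAAACA (3.65% of all windows), the antioxidant response motif TGACNNNGC (12.4%) or the ERR half-site AAGGTCA (4.72%). The NRF1 matches are printed because they are what these 4 windows shared, each with 10 bases on either side, read 5′ to 3′ on the gene's strand, with the match in capitals. Its first base lay 59 bases before the start in Opa1 (chr16:29579265-29579294, plus strand), 23 in Oma1 (chr4:103313813-103313842, plus strand), 10 in Pink1 (chr4:138326287-138326316, minus strand) and 120 in Bnip3 (chr7:138909607-138909636, minus strand).
Opa1: gtggctccccGCGCATGCGCatgtcatccg
Oma1: ggaaaggtgtGCGCCTGCGCggagccggct
Pink1: accgccccccGCGCTTGCGCacaggcgccg
Bnip3: gcccatgccgGCGCACGCGCcgcacgtgcc
Bnip3, known as a target of hypoxia-inducible factor, had 5 core matches at 4 places in 127 bases (chr7:138909517-138909643, minus strand). They are shown in capitals below, where 1 place reads as the core on both strands and another overlaps the NRF1 match.
Bnip3: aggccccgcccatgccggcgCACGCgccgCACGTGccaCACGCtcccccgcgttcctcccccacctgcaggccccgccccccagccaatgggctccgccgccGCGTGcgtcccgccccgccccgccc
A match is a match of letters only. The genes with an NRF1 match had genotype log2 fold changes of -0.06 (Opa1), 0.02 (Oma1), 0.14 (Pink1) and 0.10 (Bnip3), none of which passed the test.

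Of the fusion genes, Mfn2 had the lowest fold change of the 10. Mfn2 (chromosome 4, 147873586 to 147904909, minus strand, mm10) encodes the mitofusin that also tethers mitochondria to the sarcoplasmic reticulum. It had 21229, 22031, 20789, 19408 and 19075 normalized counts in controls 1, 2, 3, 4 and 6, and 19829, 20458, 18663, 18772 and 17947 in iSOD2 mice 5, 7, 8, 9 and 10. All 5 iSOD2 hearts lay below the control median, but 2 of them lay above the lowest 2 controls. The means were 20506 ± 1243 and 19134 ± 999.7 (SD, n = 5 each), and the log2 fold change was -0.10 (SE 0.05, 95% interval -0.21 to 0.01, DESeq2 adjusted p = 0.291). Its fold change was -0.12 in males and -0.03 in females, and -0.15 in litter A and -0.07 in litter B.

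Mfn1 (chromosome 3, 32529482 to 32579225, plus strand), which encodes the mitofusin with the stronger GTPase activity, had 6685, 7222, 6573, 6503 and 6650 normalized counts in controls 1, 2, 3, 4 and 6. The iSOD2 mice 5, 7, 8, 9 and 10 had 7018, 6937, 6180, 6863 and 6340. Control 2 was the highest heart and iSOD2 8 the lowest, with the genotypes interleaved between them. The means of 6726 ± 286 and 6668 ± 380 (SD, n = 5 each) stood at a log2 fold change of -0.01 (SE 0.05, 95% interval -0.11 to 0.09, DESeq2 adjusted p = 0.926).

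The ratio of Mfn2 to Mfn1, taken within each library on counts per base pair of exon, needs no size factor, and the exon lengths of 4537 and 4511 bp are almost equal. It was 3.16, 3.03, 3.14, 2.97 and 2.85 in controls 1, 2, 3, 4 and 6 and 2.81, 2.93, 3.003, 2.72 and 2.81 in iSOD2 mice 5, 7, 8, 9 and 10. Controls 1, 2 and 3, the 3 males, were above every iSOD2 heart, and the 2 female controls lay within the iSOD2 range. Means were 3.03 ± 0.128 and 2.86 ± 0.112 (SD, n = 5 each), a difference of -0.09 in log2 ratio (exact two-sided permutation p = 0.0476). Adjusted over the 3 ratios examined, the exact permutation p was 0.143, so the difference did not pass. It was -0.14 among males and -0.02 among females. It was -0.06 in litter A and -0.10 in litter B. The smallest exact permutation p these subsets allow is 0.333 in litter A and 0.10 in the others.

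**Figure D2:**
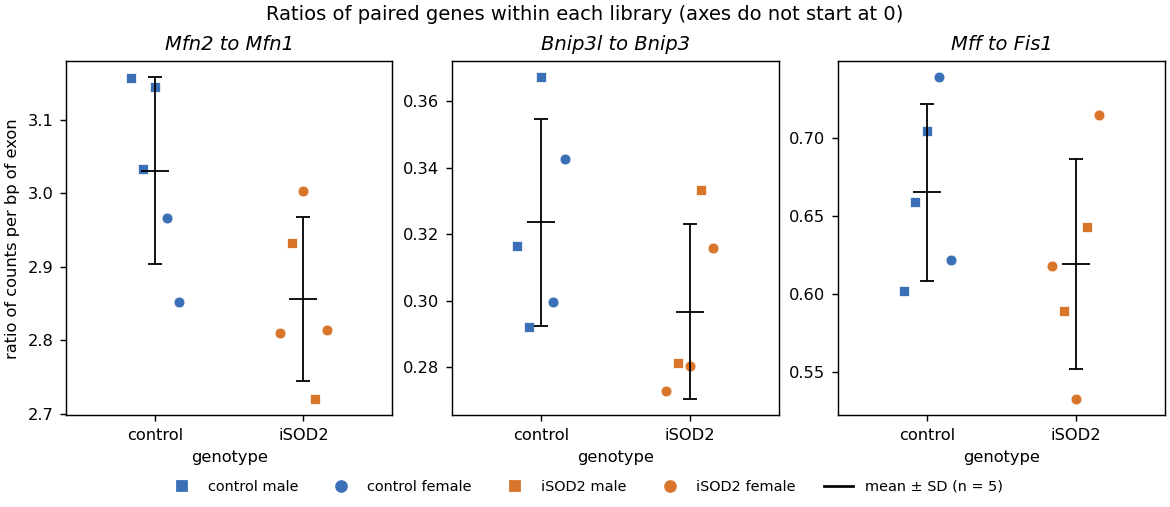
Ratio of counts per base pair of exon in each heart for Mfn2 to Mfn1, Bnip3l to Bnip3 and Mff to Fis1 (vertical axes do not start at 0), with blue for control, orange for iSOD2, squares for males, circles for females, and bars for the mean and SD of 5 mice. All 3 mean ratios are lower in iSOD2 hearts and all 3 pairs of groups overlap.

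Neither gene of the inner membrane pair passed the test. Opa1 (chromosome 16, 29579334 to 29654602, plus strand) had 7395, 8122, 7508, 6821 and 7095 normalized counts in controls 1, 2, 3, 4 and 6. The iSOD2 mice 5, 7, 8, 9 and 10 had 6791, 7315, 6972, 7500 and 6945. The high values were spread over both genotypes, and what the 5 highest hearts shared was male sex. Means were 7388 ± 490 and 7104 ± 292 (SD, n = 5 each), and the log2 fold change was -0.06 (SE 0.05, 95% interval -0.16 to 0.05, DESeq2 adjusted p = 0.603). Oma1 (chromosome 4, 103313846 to 103366428, plus strand), the stress protease, ranged from 503 to 642 normalized counts in controls and from 522 to 591 in iSOD2 hearts. The iSOD2 range lay inside the control range. Its log2 fold change was 0.02 (SE 0.08, 95% interval -0.14 to 0.17, DESeq2 adjusted p = 0.927).

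Among the fission genes, Fis1 had the highest fold change of the 10. Fis1 (chromosome 5, 136962077 to 136966234, plus strand) encodes a tail-anchored outer membrane adaptor. It had 1136, 997, 897, 932 and 996 normalized counts in controls 1, 2, 3, 4 and 6, and 1153, 1159, 1169, 1092 and 955 in iSOD2 mice 5, 7, 8, 9 and 10. Of the iSOD2 hearts, 4 stood level with control 1 and above the other controls, and iSOD2 10 stood among those. The means of 991 ± 91.4 and 1106 ± 89.7 (SD, n = 5 each) stood at a log2 fold change of 0.16 (SE 0.08, 95% interval 0.00 to 0.31, DESeq2 unadjusted p = 0.0496, adjusted p = 0.248). The fold change was 0.16 in males and 0.18 in females.

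Dnm1l (chromosome 16, 16312228 to 16359031, minus strand), encoding the DRP1 GTPase that constricts the organelle, ranged from 2719 to 3007 normalized counts in controls and from 2545 to 2873 in iSOD2 hearts. Of the controls, 4 lay between 2719 and 2742 and control 2 stood apart at 3007. Its log2 fold change was -0.04 (SE 0.05, 95% interval -0.14 to 0.06, DESeq2 adjusted p = 0.713). Mff (chromosome 1, 82724890 to 82752389, plus strand), encoding the main receptor for DRP1, had means of 1585 ± 74.5 in control hearts and 1644 ± 84.6 in iSOD2 hearts (SD, n = 5 each). Its log2 fold change was 0.05 (SE 0.06, 95% interval -0.06 to 0.16, DESeq2 adjusted p = 0.648). The ratio of Mff to Fis1 per base pair was 0.665 ± 0.0570 in control hearts and 0.619 ± 0.0675 in iSOD2 hearts (SD, n = 5 each), with a log2 difference of -0.11 (exact permutation p = 0.262).

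Of the mitophagy genes, Pink1 (chromosome 4, 138313410 to 138326296, minus strand) came closest to the threshold by adjusted p. It had 10994, 10490, 9543, 11144 and 10565 normalized counts in controls 1, 2, 3, 4 and 6, and 12038, 12965, 11515, 10885 and 10681 in iSOD2 mice 5, 7, 8, 9 and 10. All 5 iSOD2 hearts lay above the control median, and iSOD2 mice 5, 7 and 8 lay above every control. The means were 10547 ± 626 and 11617 ± 924 (SD, n = 5 each), and the log2 fold change was 0.14 (SE 0.06, 95% interval 0.01 to 0.26). The DESeq2 p was 0.0299 unadjusted and 0.188 adjusted, and the exact permutation p was 0.0635. The fold change was 0.20 in males and 0.07 in females, and 0.19 in litter A and 0.11 in litter B. The microRNA gene Mir7019 lies within Pink1 on the same strand, with a mean of 7.6 counts.

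Bnip3 (chromosome 7, 138890836 to 138909506, minus strand) had 1765, 1788, 1533, 1780 and 1659 normalized counts in controls 1, 2, 3, 4 and 6, and 1960, 1894, 1741, 1740 and 1791 in iSOD2 mice 5, 7, 8, 9 and 10. Mice iSOD2 5 and 7 were the highest hearts, as they were for Pink1, and iSOD2 8 and 9 lay within the control range. Its log2 fold change was 0.10 (SE 0.06, 95% interval -0.02 to 0.21, DESeq2 adjusted p = 0.366). Bnip3l (chromosome 14, 66985240 to 67008877, minus strand), which also clears mitochondria from maturing red cells, had 1015 ± 37.5 and 998 ± 65.5 normalized counts (SD, n = 5 each). Its log2 fold change was -0.02 (SE 0.06, 95% interval -0.14 to 0.09, DESeq2 adjusted p = 0.867). The erythroid markers had summed counts of 60950 to 120460 in controls and 57530 to 83474 in iSOD2 hearts (exact permutation p = 0.230 for their log2 level). A relation of Bnip3l to these markers was not tested. The ratio of Bnip3l to Bnip3 per base pair was 0.324 ± 0.0311 in control hearts and 0.297 ± 0.0263 in iSOD2 hearts (SD, n = 5 each), with a log2 difference of -0.12 (exact permutation p = 0.167).

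The genotype differences of the 10 genes went with their exon lengths. Fis1, with 779 bp, had the highest fold change, and the genes below 0 (Mfn1, Mfn2, Opa1, Dnm1l and Bnip3l) were the 5 longest, with 3229 to 5917 bp. Spearman's rho between fold change and length was -0.867 over the 10 genes, which are not independent replicates. The same relation ran through the table, with a rho of -0.47 over 12151 genes whose mean normalized count was 50 or more. The median log2 fold change of all genes went down over 10 length bins of equal size, from 0.13 in the shortest (up to 1185 bp) to -0.09 in the longest (6425 bp and more). When each library's trend with length was removed, 8 of 10 fitted differences moved toward 0 and rho over the members was -0.09. The removal takes out this relation by construction, and rho over the 12151 genes became 0.007. Fis1 then had a log2 fold change of 0.02 (DESeq2 adjusted p = 0.966), Bnip3 0.04 (0.880) and Mfn2 -0.05 (0.823). Opa1 and Mfn1 moved to the other side of 0, at 0.02 and 0.04, as did Oma1 at -0.03 and Dnm1l at 0.002. Pink1, with a length of 2356 bp near the middle of the range, kept most of its difference, at 0.12 (unadjusted p = 0.0456, adjusted p = 0.401), and at 0.13 with the GC trend also removed (DESeq2 adjusted p = 0.266). The Mfn2 to Mfn1 ratio stayed at -0.09 (exact permutation p = 0.0476), whereas the Mff to Fis1 difference went to -0.02 and that of Bnip3l to Bnip3 to -0.05.

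**Figure D3:**
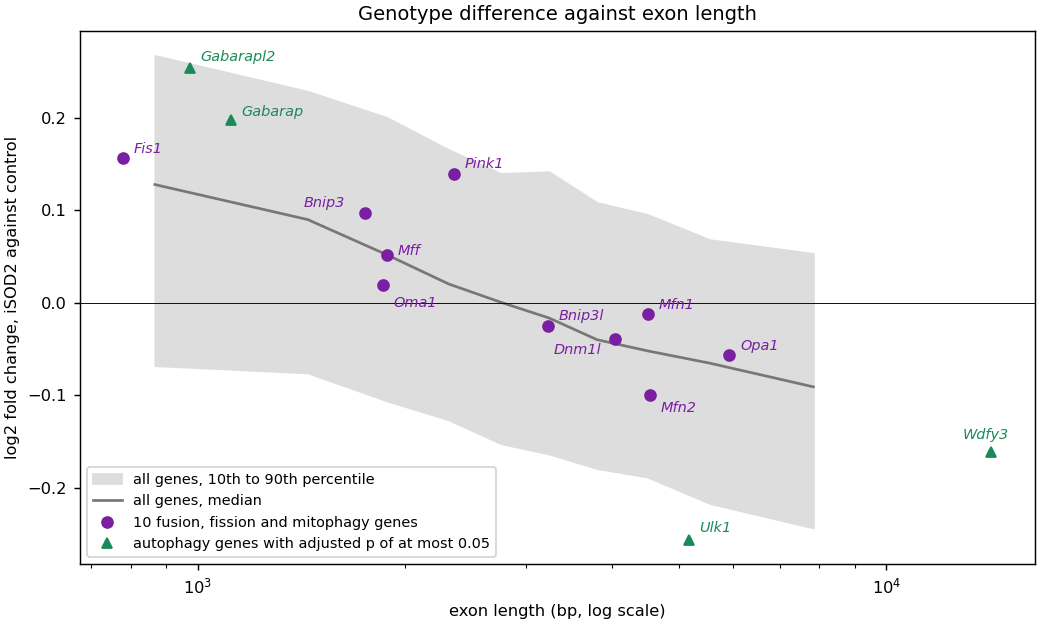
Log2 fold change (iSOD2 against control) against exon length in base pairs on a log axis, for the 10 genes (purple circles), 4 autophagy genes with an adjusted p of at most 0.05 (green triangles) and the genes whose mean normalized count was 50 or more (grey line for the median and band for the 10th to 90th percentile in 10 bins of length). The purple points descend with length along the grey median, Pink1 lying above it and Mfn2 below.

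**Figure D4:**
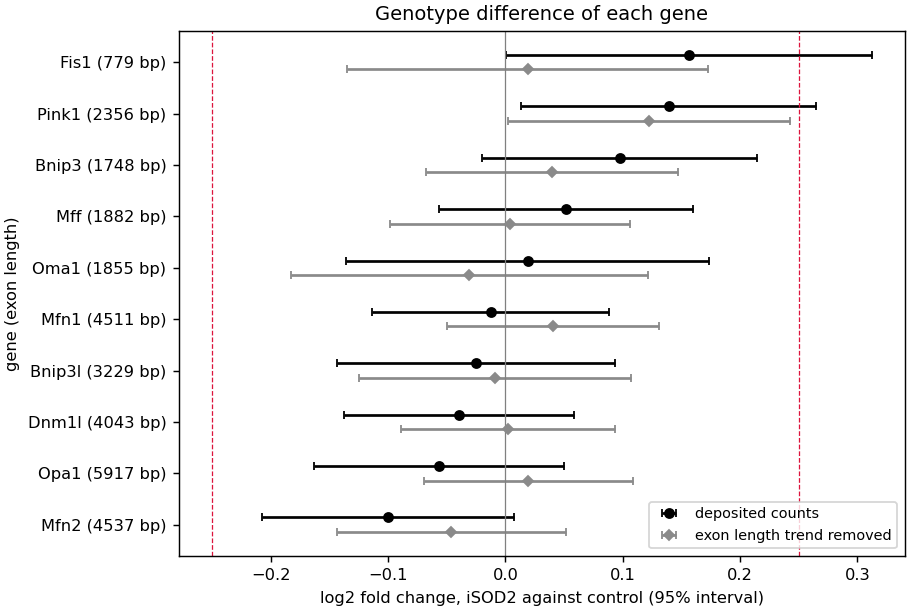
Log2 fold change of each gene with its 95% interval, from the deposited counts (black circles) and after removal of each library's exon length trend (grey diamonds), with dashed lines at the threshold of 0.25 on either side. Black intervals of Fis1 and Pink1 begin just above 0, and after removal only that of Pink1 does.

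To compare levels between genes, counts were divided by exon length and scaled to a common total per library, as TPM. Pink1 (618 ± 42.0 TPM) and Mfn2 (574 ± 37.8 TPM, SD, n = 10 mice each) led the group, with ranks of 209 and 224 among all genes. Pink1 was above Mfn2 in 7 of 10 hearts, so their order was not stable. After a gap of 2.94-fold came Mfn1 (195 ± 8.30), Fis1 (177 ± 15.1) and Opa1 (161 ± 9.27), where Mfn1 was above Fis1 in 9 of 10 hearts and Fis1 above Opa1 in 8 of 10. Bnip3 (133 ± 6.99), Mff (113 ± 5.09) and Dnm1l (89.4 ± 4.13) followed, each above the next in 10 of 10 hearts. Bnip3l (41.0 ± 2.49) and Oma1 (39.7 ± 2.59) were lowest and did not separate, Bnip3l being higher in 6 of 10 hearts. The change of order at the top went with genotype in the means, since controls had 597 ± 34.7 TPM of Pink1 and 602 ± 29.2 of Mfn2, and iSOD2 hearts 638 ± 40.9 and 546 ± 20.3 (SD, n = 5 each). This follows from the 2 fold changes given above and is no further result.

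Sex and litter, which the labels give for each mouse, were tested with genotype as a covariate. Female against male hearts gave 0 of 10 called genes, with 0.42% of all genes called. Opa1 had the lowest p of the 10, with 6791 to 7095 normalized counts over the 5 females and 7315 to 8122 over the 5 males. The sexes did not overlap for Opa1, as for 1.75% of all genes, and they overlapped for the other 9. The log2 difference was -0.12 (SE 0.04, DESeq2 unadjusted p = 0.00356, adjusted p = 0.243; edgeR unadjusted p under 0.05 as well). Mfn2 was at -0.11 in females against males (SE 0.05, DESeq2 unadjusted p = 0.0266, adjusted p = 0.610). With 6.6% of all genes at an unadjusted p under 0.05 in this comparison, 2 of 10 members were. Litter B against A gave 0 of 10 called genes, with 3.5% of all genes called. Fis1 had means of 1004 ± 99.2 in litter B (n = 6) and 1115 ± 80.3 in litter A (n = 4), a log2 difference of -0.15 (SE 0.07, DESeq2 unadjusted p = 0.0285, adjusted p = 0.257). Fis1 was the 1 member of 10 at an unadjusted p under 0.05, where 13% of all genes were.

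Tests of whether the genotype difference itself depended on sex or litter called 0 of 10 genes in either case. By sex, 0 of 17725 genes were called and 1.18% had an unadjusted p under 0.05, and 0 of 10 members did by DESeq2 or edgeR. The gap between the Pink1 values of 0.20 in males and 0.07 in females did not pass the test (difference -0.13, SE 0.13, DESeq2 unadjusted p = 0.320). By litter, 1 gene of 17721 (0.00564%) was called, no member. Oma1 had a fold change of -0.14 in litter A and 0.14 in litter B. The difference was 0.28 (SE 0.16, DESeq2 unadjusted p = 0.0807, adjusted p = 0.99998). It was at an unadjusted p under 0.05 by edgeR, for which the share of all genes is not given here. By DESeq2 0 of 10 members were at an unadjusted p under 0.05, against 1.79% of all genes.

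Across the 10 hearts the members were compared with each other in 45 pairs. Pearson's r was positive for 32 pairs, with a median of 0.24, and 0 pairs had a Benjamini-Hochberg adjusted permutation p of at most 0.05, against 10 with an unadjusted permutation p under 0.05. The closest pair was Mfn1 and Dnm1l, a fusion and a fission gene, with r = 0.852 (permutation p = 0.00156, adjusted p = 0.0702) and Spearman's rho = 0.952 (permutation p = 7e-05, adjusted p = 0.00315). Their r was 0.745 without the 2 hearts farthest from the median of Mfn1, 0.869 within genotype and 0.773 with the length trend removed. Pink1 and Bnip3 came next, with r = 0.841 (permutation p = 0.00491, adjusted p = 0.0817), rho = 0.60, and r = 0.681 without the 2 farthest hearts. Control 2, the highest heart for both Mfn1 and Dnm1l, was also highest for Mfn2, Opa1 and Oma1.

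Over the 10 hearts, the gene whose log2 level was most like each member's was sought among 12141 others at a mean normalized count of 50 or more. As a description with no test, Mfn2 was most like Acacb (r = 0.985), Pink1 most like Atp5b (0.973) and Opa1 most like Vps13d (0.971). Fis1 paired with Nenf (0.941), Bnip3 with E330011O21Rik (0.948), Mff with Prg4 (0.940), Dnm1l with Zfp109 (0.929), Bnip3l with Arhgef5 (0.929), Oma1 with Otud1 (0.921) and Mfn1 with Dnajc28 (0.885). The genes of a library share its length trend. Both genes of a pair were short for Fis1 and Nenf (779 and 652 bp) and long for Opa1 and Vps13d (5917 and 15774 bp). Lengths were unlike for Mff and Prg4 (1882 and 4263 bp) and for Dnm1l and Zfp109 (4043 and 2741 bp). The part of length in these pairs was not tested.

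The other genes of the pathway were read from 4 lists with 96 genes, of which 95 were tested. At the calling thresholds 1 was higher and 1 lower, both in the list of 40 autophagy adaptors and core machinery, and at the adjusted p alone 2 were higher and 2 lower. These were 2.27% and 4.55% of the 88 with an adjusted p, beside 2.96% and 6.09% of all genes. At an unadjusted p under 0.05, DESeq2 had 24 of the 95 (25.3%), against 13.2% of all genes. Of these, 13 were among the 40 autophagy genes (32.5%), and the other lists had 18.2% to 25%. The shares are not of like genes, since 90 of the 95 had a mean normalized count of at least 50, against 12151 of all 17728. Shares among genes at that level, or with the length trend removed, are not given here. The median log2 fold change over the 95 was 0.02, with 54 above 0 and 41 below. None of the 21 further fusion, fission and division factors passed the test. The 4 with the largest sizes were Stoml2 (0.16, adjusted p = 0.160 by DESeq2 for this and the next values), Mtfp1 (0.13, 0.0748), Dnm2 (-0.12, 0.209) and Mtfr1l (0.12, 0.0548), which encode a cardiolipin-binding scaffold, an inner membrane fission protein, a dynamin and a fission regulator. None of 12 inner membrane protease and prohibitin genes passed, led by Clpp (0.18, 0.0575), the matrix protease, Parl (0.14, 0.141), the rhomboid protease that cleaves PINK1, Spg7 (0.14, 0.337), an AAA protease subunit, and 0610009O20Rik (0.10, 0.379), the gene of the OMA1 substrate DELE1. None of 22 mitophagy receptor, ligase and regulator genes passed, with Tomm7 (0.22, 0.109), which stabilizes PINK1 at the outer membrane, Usp35 (-0.21, no adjusted p), Rheb (0.14, 0.173) and Usp8 (-0.13, 0.186) at the largest sizes.

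The 4 autophagy genes at an adjusted p of at most 0.05 were Gabarapl2, Gabarap, Ulk1 and Wdfy3, the last chosen after its values were seen. Gabarapl2, which encodes a GABARAP-family protein of the kind that BNIP3 and NIX bind, rose from 699 ± 46.9 normalized counts in control hearts to 834 ± 16.04 in iSOD2 mice (SD, n = 5 each). The difference on the log2 scale was 0.25 ± 0.06 (SE), at an adjusted p of 0.00235 by DESeq2. The genotypes did not overlap for Gabarapl2, with 642 to 771 in controls and 806 to 846 in iSOD2 hearts. They did not overlap for Gabarap and Wdfy3 either, nor for 3.75% of all genes, and they overlapped for Ulk1. Gabarap rose from 2402 ± 220 to 2757 ± 61.5 (0.20, SE 0.06, DESeq2 adjusted p = 0.0367). Ulk1, the kinase that starts autophagy, fell from 1561 ± 136 to 1307 ± 139 (-0.26, SE 0.08, DESeq2 adjusted p = 0.0457), and Wdfy3, a scaffold of selective autophagy, from 4384 ± 202 to 3919 ± 131 (-0.16, SE 0.05, DESeq2 adjusted p = 0.0141). Atg101 had a larger fold change of 0.31 that did not pass (DESeq2 adjusted p = 0.0903). The 2 that rose are short (974 and 1116 bp) and the 2 that fell long (5166 and 14208 bp). With the length trend removed none of the 4 passed, with fold changes of 0.14, 0.09, -0.19 and -0.05 in the same order and DESeq2 adjusted p values of 0.219 to 0.793. In that fit 1 other gene of the lists, Rb1cc1 (chosen after its values were seen), which encodes the FIP200 subunit of the ULK1 complex and has 7020 bp of exon, passed the adjusted p at a fold change of 0.19 (DESeq2 adjusted p = 0.0194). It was at 0.11 (adjusted p = 0.316) in the deposited counts and at 0.15 (adjusted p = 0.0375) with the GC trend also removed. By edgeR none passed either (adjusted p of 0.0704 to 0.154), and no gene in the table did, the lowest adjusted p being 0.0664 with 2718 genes at an unadjusted p under 0.05.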

How the data were processed

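RNA from mouse hearts was sequenced as total RNA libraries with a stranded kit. The authors aligned reads to mm10 with STAR and summed them over exons with HOMER, giving 1 transcript per gene and no strand setting, so reads of genes on opposite strands cannot be told apart. The values the authors deposited are estimated counts in steps of 0.5 with no normalization, and an exon length in base pairs (another unit) is deposited beside them.

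After rounding, 17728 genes with 10 or more counts over all libraries were fitted in DESeq2 1.42.0 (R 4.3.3). Size factors were medians of ratios, independent filtering was left at its default, and the Wald test of genotype had no covariate. Genes were called at a Benjamini-Hochberg adjusted p of at most 0.05 and an absolute log2 fold change above 0.25. p values were adjusted over all genes. Sex and litter were tested with genotype in the model, and interactions with their product. Ratios and marker levels were tested by two-sided exact permutation over 252 arrangements, whose smallest p is 0.00794. Correlations used log2(normalized count + 1) and 100000 permutations. Length and GC trends were removed from each library by lowess (span 0.3) over genes with a mean of at least 50. TPM-like levels came from deposited counts and lengths. Libraries were compared in 45 pairs and none was a copy (lowest chi-square per degree of freedom 5.71). The fits were tested on simulated data.

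The genes named are the 10 members, in each list the called genes and otherwise the largest fold changes up to 4 names at a mean of at least 50 normalized counts, the most correlated gene of each member, genes overlapping a member, and genes of a check. Members, lists and rules were chosen with earlier results of these data known. Alternatives were edgeR 4.0.16 quasi-likelihood, limma 3.58.1 voom, upper-quartile and TMM scaling, no count filter or a stricter one, sex and litter covariates, each sex and litter alone, length and GC trend removal, and leaving out each mouse.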

Additional observations from a re-analysis of the deposited data

Results flagged for a closer look

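Single hearts far from the rest of their group were sought in 34 groups of 5 mice with Dixon's criterion (a gap over 0.71 of the group's range), which flags about 1.7 such groups by chance, and 3 were found. Control 2 had 7222 normalized counts of Mfn1, where the other controls had 6503 to 6685. The same heart had 3007 of Dnm1l, where the other controls had 2719 to 2742. Without control 2 the log2 fold change of Mfn1 was 0.01 in place of -0.01. The third was iSOD2 7, with 806 normalized counts of Gabarapl2 against 837 to 846 in the other iSOD2 hearts.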

How the results depend on the processing

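The number of members called was 0 in the main fit and in all 25 alternatives of the genotype comparison, and the lowest adjusted p of any member in them was 0.0941, for Fis1 without iSOD2 10. Mfn2 stayed below 0 and Fis1, Pink1 and Bnip3 above 0 in all 25. Directions of fold changes near 0 turned. Mfn1 was 0.0404 with the length trend removed, 0.0397 with the length and GC trends removed, 0.0343 in litter B, 0.0157 in males, 0.00157 with sex and litter and 0.000787 with sex as covariates, and -0.0317 to 0.0143 when 1 mouse was left out. Opa1 was 0.0195 without the length trend and 0.0113 without both, Dnm1l 0.00211 without the length trend, and Oma1 -0.0306 without the length trend, -0.0300 without both, -0.14 in litter A, and -0.0144 to 0.0729 when 1 mouse was left out. Mff was -0.0386 in litter A. Bnip3l was 0.0114 in litter B, 0.0219 in males and -0.0520 to 0.00984 when 1 mouse was left out.

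The Mfn2 to Mfn1 ratio kept its direction. Its exact permutation p was above 0.05 in males (-0.14, 0.10), females (-0.0174, 0.60), litter A (-0.0605, 0.333) and litter B (-0.10, 0.10), and without controls 1, 2, 3 or 4 or iSOD2 5, 9 or 10 (0.0635 to 0.111). Leaving out 1 mouse gave differences of -0.107 to -0.0683.

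Of the 2 pathway genes called, 0 were called by edgeR, by limma voom, without the length trend or both trends, in females, males, litter A or litter B alone, or with sex as a covariate. It was 1 with sex and litter and 1 with upper-quartile scaling, and 0 to 2 when 1 mouse was left out (0 without control 2, iSOD2 5 or iSOD2 10). Over all genes the 281 calls became 0 by edgeR and 0 by voom, 133 without the length trend, 123 without both, 90 in females, 150 in males, 121 in litter A and 63 in litter B, and 166 (without control 2) to 492 (without control 4). Without control 3 they were 179. Leaving out 1 mouse ended the call of Ulk1 in 6 of 10 cases and that of Gabarapl2 in 4, where its fold change fell to 0.25 or under while its adjusted p stayed under 0.05 in all 10. The adjusted p rose above 0.05 in 8 of 10 cases for Gabarap and in 4 for Wdfy3. Apart from the built-in loss of samples or trend, the cause was not tested. The genotypes share no replicate numbers, so there was no replicate block to fit. Both litters hold both genotypes, and litter as a covariate gave 0 members, 2 pathway genes and 326 genes in all. For each of the 10 genes the coefficient of variation over all 10 mice, which takes in genotype, sex and litter, was larger than counting error. What limited detection was not tested.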
